A study of Mus musculus with 8 samples.

Results

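Among the myogenin peaks called in C2C12 myoblasts both without and with bexarotene, 1272 lay away from promoters and overlapped no p300 peak, and these intervals are described here. C2C12 is a mouse myoblast line of C3H origin that withdraws from the cell cycle and fuses into myotubes in low serum. Control cells (Ctl) were kept in differentiation medium for 24 h, and treated cells (Bex) were kept in the same medium with 50 nM bexarotene, an agonist of the retinoid X receptor, for the same time. Myogenin and p300 ChIP-seq were each performed on 1 library per condition, and of 8 samples in all these 4 come with a list of peaks. An interval of the bexarotene myogenin list was a member when it overlapped a control myogenin interval by at least 1 bp, its center was over 1 kb from every protein-coding transcription start site (TSS) of the GENCODE annotation of mm9, and it overlapped no p300 interval of either condition. The members were chosen by the measured peak calls themselves, so sharing, distance from promoters and absence of a called p300 peak are descriptions and not findings.

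Myogenin is a basic helix-loop-helix transcription factor of the MyoD family that drives the terminal differentiation of skeletal muscle. It binds, as a dimer with an E protein, to E-boxes, whose general form is CANNTG and whose preferred forms in muscle are CAGCTG and CACCTG, the latter read as CAGGTG on the other strand. p300 is a histone acetyltransferase and coactivator recruited by many transcription factors, and its binding is widely used as a mark of active enhancers. Hereafter an E-box is either CAGCTG, a palindrome, or the core CACCTG, counted on both strands.

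The bexarotene list held 6642 myogenin intervals, and 6615 of them remained after the mitochondrial genome and the first 3.1 Mb of chromosome 9 were left out. Of these, 2970 overlapped a control interval, which is 44.9%, and the control list held 5912 intervals. Of the shared intervals 250 were centered within 1 kb of a TSS and 2720 were distal, beside 87.7% distal among the 6615. Of the 2720 shared distal intervals 1448 overlapped p300, with 419 doing so in control only, 877 in both conditions and 152 in bexarotene only. The remaining 1272 are the members. Over all 6615 bexarotene intervals 60.0% overlapped no p300 interval, and among distal intervals called in bexarotene only the value was 66.1%. The p300 lists differed in size, with 22051 intervals in control and 9154 in bexarotene. The lists hold no tag counts, so the depth behind a call is unknown, and an interval without p300 is one where no p300 peak was called.

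The central 100 bp of 12 members are printed here from the plus strand of mm9, 5′ to 3′, with each E-box in capitals. They show how E-boxes are arranged in intervals near muscle and signaling genes, in an interval with none at its center, and in the arrays that hold most E-boxes.
Mef2d intron, chr3:87951555-87951654: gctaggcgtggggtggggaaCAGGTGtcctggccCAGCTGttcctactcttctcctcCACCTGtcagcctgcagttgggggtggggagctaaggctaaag
Myl1 downstream, chr1:66968751-66968850: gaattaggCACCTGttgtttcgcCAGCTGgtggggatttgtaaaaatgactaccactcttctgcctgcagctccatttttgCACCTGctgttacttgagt
Ppfia4 intron, chr1:136217454-136217553: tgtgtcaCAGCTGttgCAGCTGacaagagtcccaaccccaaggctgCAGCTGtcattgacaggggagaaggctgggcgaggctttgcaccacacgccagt
Jph1 intron, chr1:17075347-17075446: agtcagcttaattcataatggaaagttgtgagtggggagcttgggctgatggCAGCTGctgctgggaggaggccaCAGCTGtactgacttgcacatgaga
Dll1 downstream, chr17:15489945-15490044: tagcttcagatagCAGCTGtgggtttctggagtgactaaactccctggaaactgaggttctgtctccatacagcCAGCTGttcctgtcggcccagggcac
Tmem8c intron, chr2:26925318-26925417: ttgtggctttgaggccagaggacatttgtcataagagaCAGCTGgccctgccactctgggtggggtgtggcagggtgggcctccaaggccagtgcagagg
Mb downstream, chr15:76845510-76845609: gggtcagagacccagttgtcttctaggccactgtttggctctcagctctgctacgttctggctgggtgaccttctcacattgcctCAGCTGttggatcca
Rara intron, chr11:98793049-98793148: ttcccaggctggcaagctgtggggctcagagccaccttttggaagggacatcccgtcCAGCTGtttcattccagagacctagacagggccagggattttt
Cacna2d1 intron, chr5:15472884-15472983: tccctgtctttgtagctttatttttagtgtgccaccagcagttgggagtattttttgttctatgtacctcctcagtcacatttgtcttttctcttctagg
Dnahc2 intron, chr11:69273582-69273681: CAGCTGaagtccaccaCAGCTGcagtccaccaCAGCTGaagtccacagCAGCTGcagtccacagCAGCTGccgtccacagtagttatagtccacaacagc
Tecr intron, chr8:86108840-86108939: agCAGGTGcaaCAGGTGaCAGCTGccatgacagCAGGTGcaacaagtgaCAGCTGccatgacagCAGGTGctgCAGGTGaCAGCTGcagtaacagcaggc
Il2rb intron, chr15:78317116-78317215: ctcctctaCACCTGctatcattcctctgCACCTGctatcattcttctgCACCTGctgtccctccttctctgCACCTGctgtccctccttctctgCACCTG

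The Mef2d, Myl1 and Ppfia4 sequences each held 3 E-boxes, and in those of Mef2d and Myl1 CAGCTG stood beside CACCTG or CAGGTG. The Jph1 and Dll1 sequences held 2 CAGCTG each, the Tmem8c, Mb and Rara sequences held 1, and the Cacna2d1 sequence held none. In the Dnahc2, Tecr and Il2rb sequences several E-boxes followed each other at short distances.

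E-boxes at the center of the members were compared with the surrounding sequence and with other myogenin intervals. Of the 1272 members 970 held an E-box within 50 bp of the center, which is 76.3% (95% Wilson interval 73.8 to 78.5). Windows of the same length 2 kb to either side, where no myogenin interval was called, held an E-box in 12.5% (11.2 to 13.8) of 2498 cases, so members had 6.13 times the flanking share. Over all 6615 bexarotene intervals the share was 60.5%. It was 69.8% in shared distal intervals with p300, 58.6% in the 2036 distal intervals without p300 called in bexarotene only, 34.8% in the 1205 called in control only and 51.2% in shared promoter intervals. Against their own flanking windows these were ratios of 6.17, 4.95, 2.76 and 3.84, in the same order. The ratio to flanking windows was therefore about the same in members and in shared distal intervals with p300. The members exceeded shared distal intervals with p300 by 6.44 percentage points (95% Newcombe interval 3.10 to 9.74). They exceeded bexarotene-only intervals by 17.6 points (14.4 to 20.7), control-only intervals by 41.5 points (37.8 to 45.0) and shared promoter intervals by 25.1 points (18.5 to 31.6). A difference is called here when its interval excludes 0. These intervals cover counting error over peaks of single libraries and not the variation between cultures, which 1 library per condition cannot give.

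The difference from intervals with p300 depended on where the E-box was sought. Within 100 bp of the center it was 1.48 points (-0.916 to 3.85). Over whole intervals 91.0% of members and 92.4% of intervals with p300 held an E-box, a difference of -1.44 points (-3.56 to 0.631). Members were shorter, with a median of 223 bp in the bexarotene list against 266 bp for intervals with p300. Among members at the smallest length of the list, 168 bp, the central difference was 6.18 points (-0.984 to 13.5), and among longer ones it was 7.40 points (3.58 to 11.1). By p300 list the central E-box share was 72.3% where p300 was called in control only, 66.9% where it was called in both conditions and 79.6% where it was called in bexarotene only. The difference of members from these was 3.94 points (-0.787 to 8.95), 9.33 points (5.45 to 13.2) and -3.35 points (-9.48 to 4.101), so it was called only against intervals with p300 in both conditions. The differences of members from bexarotene-only and control-only intervals were called in both length strata. Against bexarotene-only intervals they were 18.2 points (13.0 to 23.1) at the smallest length and 6.88 points (2.24 to 11.6) above it.

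**Figure D1:**
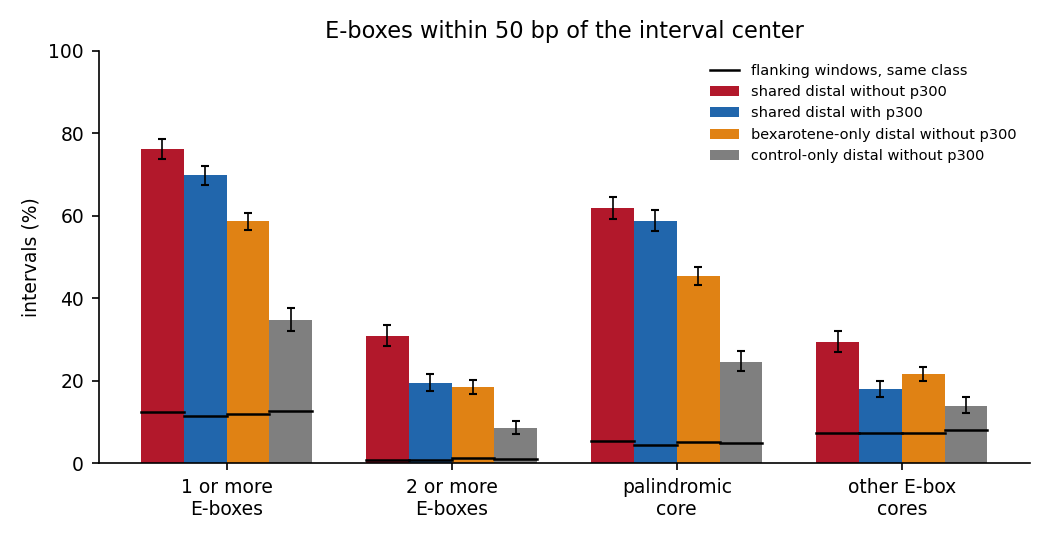
Percentage of distal myogenin intervals (y axis) with 1 or more E-boxes, 2 or more E-boxes, the palindromic core CAGCTG, or the other cores CACCTG or CAGGTG within 50 bp of the center. Bars show 4 classes with 95% Wilson intervals as error bars and black lines show flanking windows of the same class, and the members are highest in each group of bars, at 76.3%, 30.8%, 61.9% and 29.5%.

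Members also carried more E-boxes per interval. Within 50 bp of the center 578 members held 1 E-box, 303 held 2 and 89 held 3 or more. The share with 2 or more was 30.8% in members, 19.5% in intervals with p300 and 0.801% in flanking windows of the members. The difference from intervals with p300 was 11.3 points (8.01 to 14.5). It was 14.1 points (8.07 to 19.7) at the smallest length and 11.8 points (7.97 to 15.7) above it, and so was called in both strata. Of members with any central E-box 40.4% (37.4 to 43.5) had at least 2, against 28.0% (25.3 to 30.8) with p300 and 31.3% (28.8 to 34.0) in bexarotene-only intervals. Counted over whole intervals, 369 members held 1 E-box, 431 held 2 and 357 held 3 or more. The difference from intervals with p300 in the share with 2 or more was then 5.39 points (1.69 to 9.06). With CAGCTG counted alone within 50 bp of the center it was 3.38 points (0.670 to 6.11).

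The kind of core differed along with the number. CAGCTG occurred within 50 bp of the center in 61.9% of members and 58.8% of intervals with p300, and the interval of that difference, -0.586 to 6.77 points, included 0. CACCTG or CAGGTG occurred in 29.5% of members, in 17.9% of intervals with p300 and in 7.41% of flanking windows. For these cores members exceeded intervals with p300 by 11.6 points (8.40 to 14.8). Bexarotene-only intervals held them in 21.6%, a difference of 7.92 points (4.86 to 11.0). Above the smallest length the difference was 4.33 points (-0.553 to 9.06), an interval that includes 0. By content 595 members held CAGCTG only, 183 held CACCTG or CAGGTG only, 192 held both kinds and 302 held neither. Both kinds together were found in 15.1% of members and 6.84% of intervals with p300, a difference of 8.26 points (5.92 to 10.6), whereas CAGCTG alone was found in 46.8% and 51.9%, a difference of -5.16 points (-8.90 to -1.39). Among the 1482 E-boxes at member centers 70.7% (68.3 to 73.0) were CAGCTG, against 79.8% (77.6 to 81.9) with p300, 70.8% in bexarotene-only intervals and 43.2% (38.0 to 48.6) in flanking windows of the members. Several E-boxes can come from 1 interval, so sites are not independent.

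The bases next to the E-box were read outward from the core on each side, the left side on the minus strand. Of 1432 member sites with both neighbors in the window, 85.5% (83.6 to 87.2) had 2 pyrimidines (C or T) following the core on at least 1 side. The share was 82.1% (79.9 to 84.1) with p300, 82.6% (80.6 to 84.4) in bexarotene-only intervals and 50.2% (44.7 to 55.6) in flanking windows. Next to CAGCTG in members the commonest 3 bases read outward were CTG, on 6.05% of 1982 sides, and CTG was also the commonest with p300 (7.02%), in bexarotene-only intervals (6.24%) and in flanking windows of the members (4.44% of 270 sides).

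E-boxes lay close to the center of the members. In the 970 members with a central E-box the nearest was a median of 14 bp from the center (quartiles 7 and 26 bp), with 383 inside 10 bp and 619 inside 20 bp. Within 40 bp of the center members held 1.26 E-boxes per 100 bp, and between 240 and 400 bp from it they held 0.155, a ratio of 8.18. The ratio was 6.97 in intervals with p300, 6.22 in bexarotene-only and 3.22 in control-only intervals. Pairs of E-boxes with 0 to 20 bp between them were sought within 100 bp of the center and were found at every spacing. On average 15.7 members had a pair at a given spacing, with most at 7 bp (27 members), 6 bp (26) and 8 bp (24) and fewest at 2 bp (3). In intervals with p300 the spacing of 7 bp was also the commonest, in 19 intervals, where the average over spacings was 12.4. These spacings were read after the counts were seen and were not tested.

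**Figure D2:**
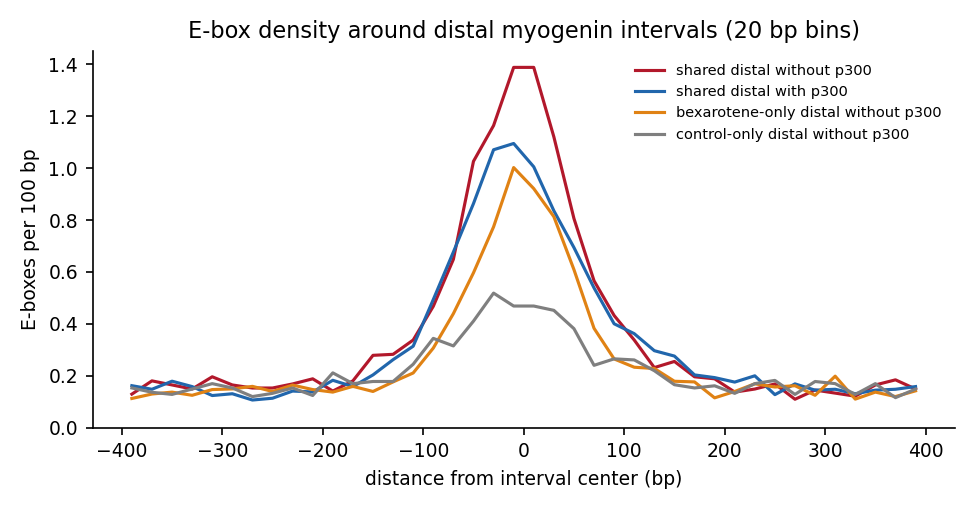
E-boxes per 100 bp (y axis) in 20 bp bins by distance from the interval center in bp (x axis) for 4 classes of distal myogenin intervals. The members have the highest line at the center, averaging 1.26 within 40 bp, and all lines fall to about the same level, 0.155 in the members, toward the edges.

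Sequences bound by other factors were sought within 100 bp of the center on both strands. The study had already found bZIP, Runx and Tead motifs at p300 peaks in enhancers of these data. Higher shares of these motifs in intervals with p300 are therefore descriptions that are not independent of that result. The bZIP motif TGACTCA, bound by Fos and Jun proteins, was found in 107 members, which is 8.41% (7.01 to 10.1), and in 259 intervals with p300, which is 17.9% (16.0 to 19.9). The difference was -9.47 points (-12.0 to -6.96). Flanking windows of the members held the motif in 3.61% and all bexarotene intervals in 12.7%. Bexarotene-only intervals, which also lack p300, held it in 9.72%, and the difference of members from them was -1.31 points (-3.27 to 0.737). Control-only intervals without p300 held it in 7.39%, with a difference of 1.03 points (-1.11 to 3.16) that went in opposite directions by length, 3.17 points (0.140 to 6.72) at the smallest length and -4.06 points (-9.04 to -0.0193) above it. The motif was less frequent in members than in intervals with p300 in each of 5 bins of length, by between -14.1 and -5.28 points, and the interval included 0 only in the longest bin. By p300 list the motif was found in 16.7% of intervals with p300 in control only, 19.6% with p300 in both and 11.2% with p300 in bexarotene only, and the difference of members from the last of these was -2.77 points (-8.93 to 1.63). The motif was found in 8.25% (6.68 to 10.1) of the 970 members with a central E-box and in 8.94% (6.22 to 12.7) of the 302 without.

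The Runx motif TGTGGT, bound by factors that act in muscle and bone lineages, was found in 31.1% of members, 37.8% of intervals with p300, 16.3% of flanking windows and 29.7% of all bexarotene intervals. The difference of members from intervals with p300 was -6.72 points (-10.3 to -3.14), which was -13.6 points (-21.0 to -6.18) at the smallest length and -4.49 points (-8.60 to -0.331) above it. In 5 bins of length the interval included 0 in all but the smallest. By p300 list the difference was -2.36 points (-7.63 to 2.70) from intervals with p300 in control only, -9.08 points (-13.2 to -4.97) with p300 in both and -5.13 points (-13.4 to 2.53) with p300 in bexarotene only. Against bexarotene-only intervals members were higher by 5.12 points (1.96 to 8.31), but the interval included 0 in both length strata, with 3.12 points (-1.65 to 8.21) at the smallest length and 3.42 points (-1.55 to 8.25) above it. The Tead motif GGAATG, bound by effectors of the Hippo pathway that also act on muscle promoters, was found in 19.5% of members, 23.1% of intervals with p300, 11.4% of flanking windows and 19.2% of all bexarotene intervals. Its difference from intervals with p300 was -3.57 points (-6.63 to -0.481), and its interval included 0 in either length stratum and under 6 of the alternative settings.

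The MEF2 consensus, bound by partners of myogenin on muscle genes, was found in 44 members, or 3.46% (2.59 to 4.61), against 2.56% (1.86 to 3.50) with p300, 1.32% of flanking windows and 2.72% of all bexarotene intervals. The difference from intervals with p300, 0.904 points, had an interval of -0.384 to 2.25. The nuclear receptor site AGGTCA was found in 13.2% (11.5 to 15.2) of members, 13.3% of intervals with p300, 13.9% of flanking windows and 13.6% of all bexarotene intervals. It was found in 15.8% of bexarotene-only intervals, from which members differed by -2.56 points (-4.96 to -0.0700), and the interval included 0 in both length strata. Direct repeats of nuclear receptor sites spaced by 1 to 5 bp were found in 8 members, or 0.629% (0.319 to 1.24), against 0.601% of flanking windows, 0.514% of all bexarotene intervals and 2 intervals with p300 (0.138%, 0.0379 to 0.502). The difference of members from intervals with p300 was 0.491 points (0.0127 to 1.11), and its interval included 0 in both length strata. The Sp1 motif GGGCGG was found in 6.21% of members, 5.94% with p300, 4.05% of flanking windows, 7.20% of all bexarotene intervals and 17.2% of shared promoter intervals. These sequences were counted as letters and do not show that a factor was bound, and the intervals were not adjusted for the number of motifs compared.

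**Figure D3:**
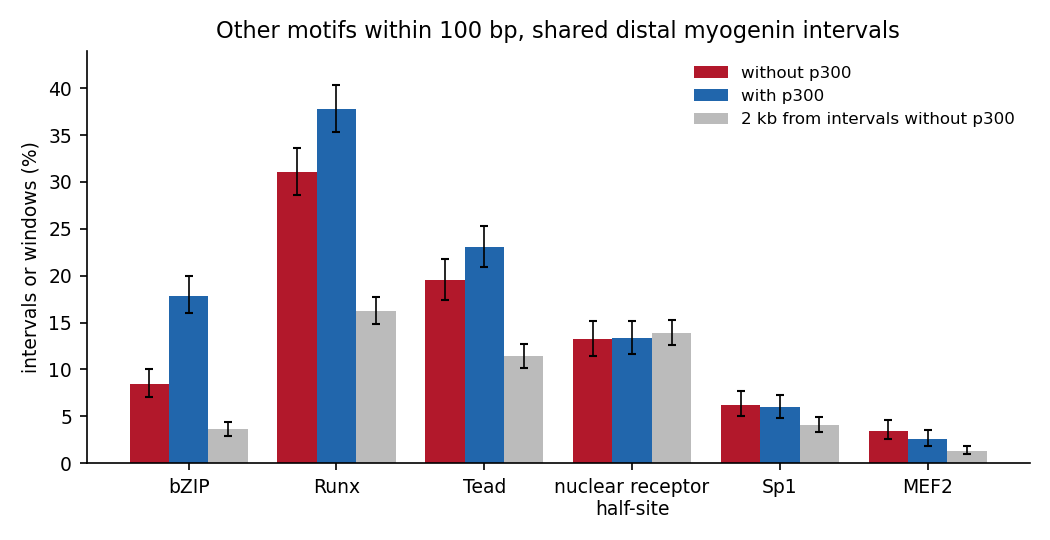
Percentage of intervals or windows (y axis) with a motif within 100 bp of the center, for shared distal myogenin intervals without p300 (the members), those with p300, and flanking windows 2 kb from the members, with 95% Wilson intervals. The bZIP motif, which the study had already found at p300 peaks, shows the widest gap between both interval classes, 8.41% against 17.9%. The nuclear receptor site is at 13.2%, 13.3% and 13.9% in the 3 groups.

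The 302 members without a central E-box were examined separately. Of these, 187 (61.9%) held an E-box elsewhere in the interval, and 175 (57.9%) held another CANNTG within 50 bp of the center. Flanking windows of the members held any CANNTG, E-boxes included, in 41.2%. Neither an E-box elsewhere nor another CANNTG was found in 54 members. Of the 302, 109 were at the smallest length. In the first bin above the smallest length 84.3% (79.3 to 88.2) of 254 members held a central E-box, and in the bin of the longest 147 members 60.5% (52.5 to 68.1) did, while 72.3% (67.7 to 76.5) did so at the smallest length.

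The members with most E-boxes differed in how regularly these were spaced. An interval in intron 44 of Dnahc2, a dynein heavy chain gene, at chr11:69273372-69273892 held 20 E-boxes, of which 18 were CAGCTG, and 15 of the 19 steps between them were 16 bp. Its nearest TSS was that of Kdm6b, a histone demethylase, 46.5 kb away. An interval in intron 1 of Tecr, an enzyme of fatty acid elongation, at chr8:86108775-86109004 held 17, and its commonest step, 7 bp, made up 5 of 16. Intervals in intron 5 of Il2rb, an interleukin receptor gene (chr15:78317035-78317297), upstream of Cd7 (chr11:120904446-120904741) and upstream of Mprip (chr11:59453841-59454054) held 11, 10 and 10, and the commonest step was 23 bp (6 of 10), 21 bp (8 of 9) and 19 bp (7 of 9). Another 2 members, nearest Fam65c and Atg4c, also held 10 and are not described further. All 5 described were called in both conditions, with lengths in control and bexarotene of 403 and 521 bp at Dnahc2, 228 and 230 bp at Tecr, 441 and 263 bp at Il2rb, 233 and 296 bp at Cd7 and 172 and 214 bp at Mprip. Whether reads map uniquely to these intervals was not tested.

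The length of a called interval in both lists is the only measure of the peak that the lists give, and it enters the rule through overlap, so it is described without a test. In bexarotene the members had a median length of 223 bp (quartiles 168 and 288 bp, longest 848 bp), and their control intervals had a median of 220 bp (172 and 277 bp, longest 1241 bp). The smallest lengths, 168 bp in bexarotene and 172 bp in control, were the values of 239 members in both lists, and 619 members were longer than that in both. Of the remainder 259 were longer only in bexarotene and 155 only in control. Members at the smallest length in both lists all count as longer in control, since the smallest length of that list is larger. With them 534 members were longer in bexarotene and 728 in control, with a median ratio of bexarotene to control length of 0.977. Without them 534 were longer in bexarotene and 489 in control, with a median ratio of 1.02. The median ratio in intervals with p300 was 1.01 with such pairs and 1.06 without. Of the members 69.0% were above the smallest length in bexarotene, against 82.0% with p300 and 26.7% of bexarotene-only intervals. The centers in the lists were a median of 29 bp apart (quartiles 12 and 54 bp, at most 329 bp). The least overlap that made a member shared was 4 bp, and 13 members overlapped by under 50 bp.

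**Figure D4:**
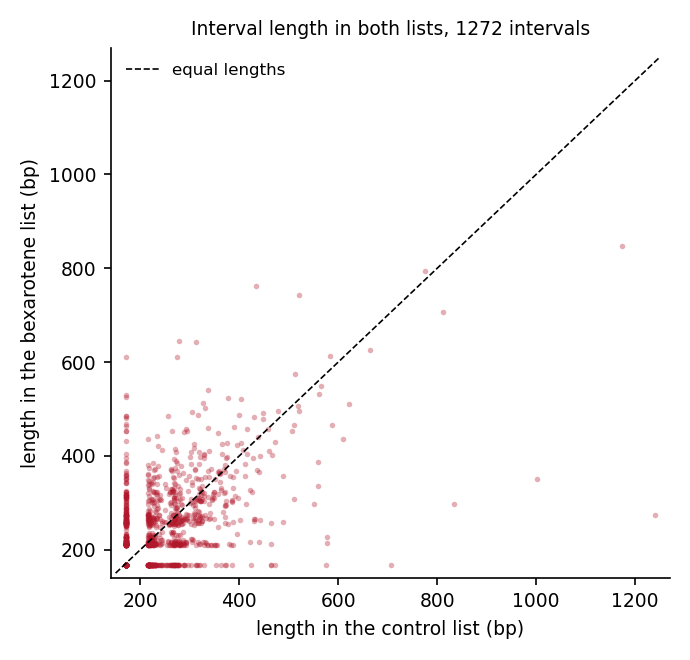
Length in bp of each of the 1272 members in the control list (x axis) and in the bexarotene list (y axis), 1 point per member, with a dashed line of equal lengths. Points gather at the smallest lengths, 172 and 168 bp, and among the 1033 members not at the smallest length in both lists 534 lie above the line and 489 below it.

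The longest members described here were in intron 1 of Cdc34, a ubiquitin-conjugating enzyme (chr10:79145853-79146700, 848 bp in bexarotene and 1174 bp in control), intron 1 of Traf4 (chr11:77975888-77976682, 795 and 775 bp), 92.1 kb upstream of Gm5160 on chromosome 18 (762 and 433 bp) and in intron 5 of Ccdc141 (chr2:76951925-76952666, 742 and 520 bp). They held 5 or 6 E-boxes over the whole interval and at most 1 at the center.

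By annotation 649 members were centered in an intron of a protein-coding gene, which is 51.0% (48.3 to 53.8), 47 in an exon (3.69%) and 576 between genes (45.3%). In intervals with p300 introns held 44.5% (41.9 to 47.0) and the space between genes 53.1%. The members were a median of 20.1 kb from the nearest TSS (quartiles 7.64 and 55.8 kb), against 33.0 kb with p300, 17.4 kb for bexarotene-only and 10.6 kb for control-only intervals. The nearest TSS lay downstream of 546 members and upstream of 726. Members nearest the limit were 1004 bp (Sec63), 1023 bp (Arhgef37) and 1031 bp (Brd2) from a TSS, and shared intervals just outside the rule were at 999 bp (Sap130), 996 bp (Gadd45b) and 990 bp (Map4k4). The central 200 bp of members had a median GC content of 51.0% against 46.5% in flanking windows and 50.5% with p300.

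The nearest p300 interval of either list was a median of 14.9 kb from a member (quartiles 4.31 and 49.4 kb), 16.6 kb for the control list and 47.1 kb for the shorter bexarotene list. It was within 1 kb of 120 members and within 10 kb of 500. The least gap was 5 bp and 19 members had a gap of at most 100 bp, while the least overlap on the other side of the limit was 1 bp. Central E-boxes were found in 78 of the 120 members within 1 kb of p300, which is 65.0% (56.1 to 72.9), and in 78.2% (75.2 to 81.0) of the 772 members with no p300 within 10 kb. The bZIP motif was found in 7.50% (9 of 120) and 8.68% (67 of 772) of these groups, both below the 17.9% of intervals that overlapped p300. Another myogenin class lay close to some members. A bexarotene-only distal interval without p300 was within 10 kb of 197 of them (15.5%), and a shared distal interval with p300 was within 10 kb of 122 (9.59%). These classes differ in size, with 2036 and 1448 intervals, so the counts are not compared. The neighbor counts and the distances to p300 are given for members only, with no background from other myogenin intervals.

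The promoters of the 1048 genes with the TSS nearest a member were then searched for peaks within 1 kb of any TSS of the gene. A control p300 interval was found at 24.0% (21.6 to 26.7), against 10.9% of 22232 protein-coding genes, and a bexarotene p300 interval at 11.9% (10.1 to 14.0), against 5.35%. A control myogenin interval was found at 16.5% (14.4 to 18.9), against 6.29%, and a bexarotene one at 12.1% (10.3 to 14.2), against 3.90%. The 1102 genes nearest intervals with p300 had p300 in control at 28.2% and in bexarotene at 13.6%. They had myogenin in control at 13.9% and in bexarotene at 10.4%. The gene sets shared 292 genes, which are 27.9% of the genes nearest members and 26.5% of the others. Gene expression was not analysed here, so no interval is tied to a change of a gene.

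Genes of muscle function were counted by lists, each gene being counted when a member lay inside it or within 50 kb. Over 22238 protein-coding genes 9.29% had a member and 8.42% had a shared distal interval with p300. In the 7 muscle lists together 38 of 151 genes had a member, which is 25.2% (18.9 to 32.6), and 44 had an interval with p300. Of the 38, 22 had no shared distal interval with p300, while over all 2067 genes with a member 74.1% had none. In lists of liver, neuron and blood genes together 2 of 59 had a member and 5 had an interval with p300. The lists were described by their counts and were not tested, and their genes differ in length from the rest, with a median of 25.7 kb in the muscle lists and 15.5 kb over all genes.

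**Figure D5:**
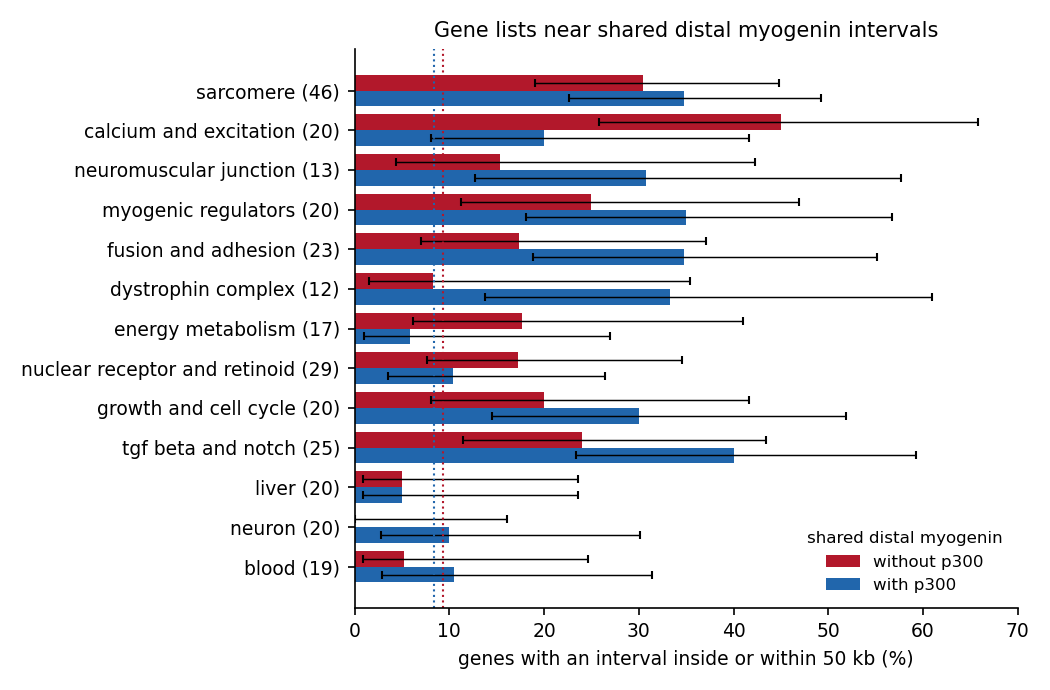
Percentage of the genes of each list (number in parentheses) with a shared distal myogenin interval inside the gene or within 50 kb (x axis), without p300 (the members) and with p300, with 95% Wilson intervals. Dotted lines mark the shares over all protein-coding genes, 9.29% and 8.42%, and more genes have members than intervals with p300 in 3 of the 13 lists, fewer in 9 and as many in 1.

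Among 46 sarcomere genes 14 had a member and 16 had an interval with p300. Acta1, which encodes skeletal alpha-actin, had 4 members and no interval with p300, and the longest of them lay 1.28 kb upstream of the gene, within an intron of the overlapping locus Gm20388 (chr8:126419709-126420161). It was 453 bp in bexarotene and 172 bp in control and held 3 E-boxes, none within 50 bp of its center. Myl1, an alkali light chain of fast myosin, had 2 members, and the one shown above lay 2.07 kb beyond its 3′ end (chr1:66968600-66969001), with 402 bp in bexarotene, 328 bp in control and all 3 of its E-boxes at the center. Mybph, a myosin-binding protein, had 3 members, and the one in its intron 3 was 458 bp in bexarotene and 292 bp in control and held 5 E-boxes. The nearest called p300 interval was 48.9 kb from it, which does not show that p300 is absent there. The primers with which the study assayed p300 at Mybph by ChIP and quantitative PCR match this interval. That measurement is not reported here. Mybph also had 1 shared distal interval with p300. Of the 14 sarcomere genes with a member, 7 had no shared distal interval with p300, beside the 74.1% over all genes with a member. Besides Acta1 and Myl1, these were Mybpc2, Mylpf, Tnnc1, Tpm2 and Lmod2.

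Among 20 genes of calcium handling and excitation 9 had a member and 4 had an interval with p300. A bexarotene-only distal interval without p300 was found for 9 of the 20, beside 15.5% of all protein-coding genes. In the muscle lists together that share was 33.8%. Of the 9 genes with a member, 8 had no shared distal interval with p300, beside the 74.1% over all genes with a member. Those 8 were Ryr1, the calcium release channel, Cacnb1 and Cacna2d1, subunits of the voltage-gated calcium channel, Jph1, which tethers the sarcoplasmic reticulum to the T-tubule, Atp2a2, a calcium pump, Casq2, a calcium-storing protein, Jsrp1 and Clcn1, the muscle chloride channel. In Cacna2d1 the member lay in intron 1 (chr5:15472763-15473104), was 342 bp in bexarotene and 221 bp in control, and held 3 E-boxes, none at the center. In Jph1 it lay in intron 2 (chr1:17075233-17075561), was 329 and 217 bp, and both of its E-boxes were central CAGCTG. In Casq2 it lay in intron 1 (chr3:101899441-101899757), was 317 and 172 bp, and held 1 E-box away from the center.

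Of 20 myogenic regulators 5 had a member (Myog, Mef2d, Tcf3, Id2 and Id3) and 7 had an interval with p300. In Mef2d, a MEF2 family gene, a member in intron 1 (chr3:87951424-87951786) was 363 bp in bexarotene and 359 bp in control and held 5 E-boxes, 3 of them at the center. Mef2d had no shared distal interval with p300, and the nearest p300 interval was 4.91 kb away. The longer of the 2 members near the myogenin gene lay in intron 12 of Ppfia4 (chr1:136217320-136217687), 28.4 kb downstream of Myog, was 368 and 263 bp, and held 3 central CAGCTG. Near Id3, an inhibitor of basic helix-loop-helix factors, a member of 453 bp in intron 1 of E2f2 (chr4:135730333-135730785) was separated from a p300 interval by only 46 bp.

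Of 23 fusion and adhesion genes 4 had a member and 8 had an interval with p300. Tmem8c, the gene of the fusion protein myomaker, had 3 members and no interval with p300, and that in intron 1 (chr2:26925187-26925549) was 363 bp in bexarotene and 172 bp in control with 1 of its 2 E-boxes at the center. Gm7325, the gene of myomixer, had 1 of each kind. Of 17 energy genes 3 had a member and 1 had an interval with p300. Mb, which encodes myoglobin, had 4 members and none with p300, and those 0.359 and 1.38 kb beyond its 3′ end (chr15:76845370-76845750 and chr15:76844384-76844704) were 381 and 321 bp in bexarotene and 372 and 280 bp in control. They held 5 and 3 E-boxes, 1 at each center.

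Of 13 genes of the neuromuscular junction 2 had a member, which is 15.4% (4.33 to 42.2), and of 12 genes of the dystrophin complex 1 did, which is 8.33% (1.49 to 35.4), while 4 genes of each list had an interval with p300. Utrn, encoding utrophin, had 2 members in its intron 1, of 266 and 212 bp in bexarotene and 267 and 319 bp in control. Colq, which anchors acetylcholinesterase, had 1 at the smallest length in both lists. Lama2, a laminin chain of the muscle basement membrane, had 2, in introns 12 and 1, of 322 and 168 bp in bexarotene.

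Of 29 nuclear receptor and retinoid genes 5 had a member (Rara, Rarb, Thra, Nr1d1 and Tgm2), and none of the 5 had a shared distal interval with p300, beside the 74.1% without one over all genes with a member. Another 3 genes of the list had such an interval. The members in intron 1 of Rara (chr11:98793015-98793182) and intron 2 of Rarb (chr14:17410726-17410893) were at the smallest length in bexarotene and held 1 E-box each, and the control intervals were 172 and 236 bp. A member at the smallest length in both lists lay 1.56 kb upstream of Nr1d1 and 7.89 kb downstream of Thra and held no E-box. Its nearest p300 interval was 0.745 kb away.

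Of 20 growth and cell cycle genes 4 had a member (Ccnd3, Igf2r, Akt1 and Akt2), and of 25 TGF-beta and Notch genes 6 did (Tgfb3, Smad3, Notch1, Notch3, Dll1 and Rbpj), against 6 and 10 with an interval with p300. Ccnd3, the cyclin D3 gene, had 3 members, and those in its intron 1 (chr17:47679037-47679304 and chr17:47660248-47660504) were 268 and 257 bp in bexarotene and 226 and 323 bp in control. Dll1, a Notch ligand gene, had a member 14.3 kb downstream (chr17:15489861-15490128) of 268 bp in bexarotene and 333 bp in control, whose 2 E-boxes were central CAGCTG. In intron 1 of Smad3, a transducer of TGF-beta signals, a member of 379 bp in bexarotene and 282 bp in control lay 0.956 kb from p300 and held 1 E-box away from its center.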

How the data were processed

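Myogenin and p300 ChIP-seq peaks of C2C12 cells were taken from 4 deposited lists. For these the authors used BWA-MEM (myogenin) or Bowtie (p300) with mm9, Picard for duplicates and, per library, HOMER peak calling in its factor style. The deposited values are positions only (chromosome, start and end), with no tag count, score or input value, and starts were read as counted from 0 and are printed from 1. The authors' threshold could not be changed, and input and H3K27me3 libraries were not used here.

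Members, motif lists and gene lists were chosen with earlier results of these data known. TSS distances used 46006 GENCODE records of protein-coding transcripts, measured from the interval center, in place of the RefSeq catalog of the study, and sequences came from the same build. E-boxes were counted within 50 bp of the center, and other motifs and the spacing of E-box pairs within 100 bp of it. Flanking windows lay 2 kb to either side and overlapped no myogenin interval. Shares have 95% Wilson and differences 95% Newcombe intervals, with no p-value, since each condition has 1 library. They cover counting error only.

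Named members were up to 3 per gene list by length, inside or within 50 kb of a listed gene, the 5 longest, the 5 with most E-boxes (4 members tied at 10, of which 2 were taken) and those nearest the TSS limit. Not every one is printed. The functions were tested on simulated data. Alternatives changed the overlap, TSS, p300 and motif rules, the list whose intervals were counted and the gene distance. Tools were pysam 0.24.0, pandas 2.3.3, numpy 2.4.6, scipy 1.17.1 and matplotlib 3.10.9 in Python 3.11.15.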

Additional observations from a re-analysis of the deposited data

How the results depend on the processing

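Of 182 alternatives, 148 kept the direction and call of a difference, left a share within its interval or moved a count by under 1.5 times. The member count ran from 1064 to 1691, and muscle genes with a member from 27 (over 5 kb from a TSS) to 54 (within 100 kb of the gene). The excess over intervals with p300 in members with 2 or more E-boxes and the deficit in bZIP motifs kept direction in every alternative run. In each of them 1 value was no longer called. The excess of 2 or more E-boxes, 11.3 points in the main setting, was 5.39 over whole intervals and 3.38 for the palindromic core alone. The excess of central E-boxes over bexarotene-only intervals was 6.88 to 20.2 points and over control-only intervals 33.0 to 42.9 points.

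The share with an E-box was 78.5% with reciprocal overlap of 50%, 89.5% within 100 bp and 91.0% over whole intervals. It was 61.9% for the palindromic core alone and 90.0% for any CANNTG (41.2% in flanking windows). The share of these with 2 or more was 37.0% with the bexarotene p300 list alone, 63.4% within 100 bp, 68.1% over whole intervals, 27.4% for the palindromic core alone and 67.2% for any CANNTG. The palindromic core made up 67.7% of sites over whole intervals. Pyrimidine pairs followed 83.4% of sites within 100 bp, 82.1% over whole intervals and 77.0% of any CANNTG. Introns held 48.1% of members over 5 kb from a TSS.

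The excess of E-boxes over intervals with p300 was 1.48 points within 100 bp, -1.44 over whole intervals and 3.10 for the palindromic core alone. In length bins added after the data were seen it was 6.18 at the smallest length, -1.48 in the bin next to the longest and 3.44 in the longest, and the excess of 2 or more E-boxes was 5.38 in the bin next to the longest. The bZIP difference was -5.28 in the longest bin. The Runx difference was 0.0153 (-8.18 to 8.22) in the first bin above the smallest length, then -7.06 (-14.9 to 0.959), -6.91 (-14.9 to 1.46) and -4.16 (-12.9 to 5.18), and so was called in none of these 4 bins. The Tead difference was -2.80 with reciprocal overlap, -2.48 with no p300 within 1 kb, -2.90 and -1.69 with the control or bexarotene p300 list alone, -3.36 in longer intervals and -0.786 within 50 bp. The MEF2 difference was 1.46 (0.159 to 2.88), and so was called, with no p300 within 1 kb. The cause of these shifts was not tested.

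No paired analysis was possible because each condition has 1 library. The share of members in repeats was not run, since the genome used is not masked. Peak height, fold over input and the depth of either p300 library are unknown from the lists.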

Other observations

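By chromosome the share of shared distal intervals that lacked p300 ran from 36.9% (27.4 to 47.6) of 84 on chromosome 14 to 65.6% (48.3 to 79.6) of 32 on chromosome X, and was 46.8% (1272 of 2720) over all chromosomes. Without 5 members that lie together near Gm17379, chromosome X had 16 of 27 (59.3%, 40.7 to 75.5). Chromosome X had the fewest members per Mb, 0.126, and chromosome 15 had the most, 0.889. Shared distal intervals with or without p300 numbered 32 on chromosome X and 198 on chromosome 15. On chromosome 15 46.5% of them lacked p300, close to the share over all chromosomes. These densities are therefore not particular to the members. Most genes were nearest to a single member (869 of 1048). Bin1, which encodes a membrane-bending protein of the T-tubule, was nearest to 6, Gadd45g and Gm17379 to 5 each and Rap1gap2 to 4. Chaining members at most 10 kb apart gave 69 groups with 147 members. The largest group held 5 members on chromosome X (166427360 to 166439216), near the end of the chromosome and all nearest Gm17379. A group of 3 lay within 1.91 kb near the start of chromosome 18 beside Vmn1r238. How reads map to those chromosome ends was not tested, and the E-box share of members without both groups stayed within its interval. Groups of 3 also lay near Kcnj12, Acox3, Pabpn1l and Acta1, and a group of 3 had Ddx60 and Palld as its nearest genes.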
